A study of Mus musculus with 3 samples.

Results

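Most mouse odorant receptor genes lie in a few large arrays, and the 116 receptors described here lie outside them, in small clusters and as single genes on chromosomes 1, 3, 4, 6, 8, 14, 15 and X. They were taken from the authors' table of 1085 named receptor promoter positions. Of its 130 rows on these 8 chromosomes, 7 unannotated pseudogenes and the 7 genes from Olfr1507 to Olfr1513, beside the H enhancer, were left out, and no remaining name occurred in more than 1 row. The positions formed 18 clusters, defined by gaps of at least 1 Mb between neighbouring rows of the table, and 5 of these clusters held a lone gene. There were 62 members on the plus strand and 54 on the minus strand. All 8 chromosomes lie outside chromosome 7, where the older class I receptors sit, so the members are class II receptors by location. Members were chosen by name and location alone.

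The samples were RLM-RACE products of olfactory epithelium on tiling arrays, 1 array for Stringent, a product of nested PCR, and 2 arrays for High Coverage, products of PCR without nesting. All 3 samples came from C57/Bl6 mice of 6 to 8 weeks, the labels name no treatment, and each pooled the tissue of 5 animals. Degenerate primers against receptor coding sequence started the reverse transcription, so an RNA that these primers do not match is measured poorly or not at all. The headers call the scan behind the first High Coverage array female and that behind the second male (HC1 and HC2 below), and a difference between those arrays cannot be told apart from one between the sexes. The number of arrays limits the precision, Stringent has no replicate, and no p-value is given below.

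Odorant receptors are G protein-coupled receptors in the cilia of olfactory sensory neurons. A mature neuron expresses a single allele of a single receptor gene, so each receptor's mRNA comes from a small share of the neurons of the epithelium. The coding sequence of a receptor usually lies in 1 exon, with 1 or more short noncoding exons upstream, so the start of transcription can lie several kilobases from the coding start. RLM-RACE marks capped 5′ ends, and hybridisation of the product to tiled probes shows where on the genome those ends and the exons beyond them lie. In pooled epithelium, fewer neurons that choose a receptor and less of its mRNA per neuron cannot be told apart.

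Signal at a promoter was read as the highest MAT score within 100 bp of the named position. A MAT score combines standardised probes over a window, and scores of different arrays are not on a common scale. Each was therefore also expressed as a percentile among the 2188086 scored probes of its array. A promoter counted as called where a region that the authors had called on that array reached into the same window by at least 1 bp. All 116 members had scored probes in the window, with a median of 37.5 probes (13 to 41). The distance from the position to the 5′ edge of the Stringent region left the same remainder on division by 5 bp at 32 of 58 members, or 55.2%, and at 46.9% of all positions with such a region. How the positions were set is not stated, so calls at them may not be independent of it.

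Members were called on Stringent less often than the rest of the family and on High Coverage about as often or more often. A Stringent region lay at 58 of the 116 members, or 50% (exact Clopper-Pearson 95% interval, 40.6 to 59.4, for counting error over promoters only), beside 61.7% of all 1085 positions and 63.1% (59.9 to 66.1) of the 969 other positions. HC1 had a region at 49 members, or 42.2% (33.1 to 51.8), beside 36.4% of all positions and 35.7% of the other positions. HC2 had one at 51 members, or 44.0% (34.8 to 53.5), beside 43.6% of all positions and of the other positions alike. On Stringent the intervals of members and other positions did not overlap, and on each High Coverage array they did. No test of these differences was run, since promoters of 1 array, and above all neighbours in 1 cluster, are not replicates. The authors set unlike thresholds, at MAT scores of 2.52 on Stringent, 2.53 on HC1 and 2.99 on HC2, so shares of different arrays are not at a like cutoff.

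The percentiles were ordered in the same way as the calls on each array. The median member stood at the 93.2 percentile on Stringent (95% interval of the median, 92.6 to 94.1), against 94.5 (94.2 to 94.9) for the other positions. On HC1 it stood at 92.2 for members and 91.1 for other positions, and on HC2 at 93.1 and 92.3. The top of the Stringent range was thinly filled: 4 members, or 3.45%, reached the 99th percentile there, beside 7.88% of all scored positions. On HC1 it was 5.17% of members and 4.36% of all scored positions, and on HC2 10.3% and 6.67%. The 4 on Stringent were Olfr31, Olfr211, Olfr726 and Olfr414.

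**Figure D1:**
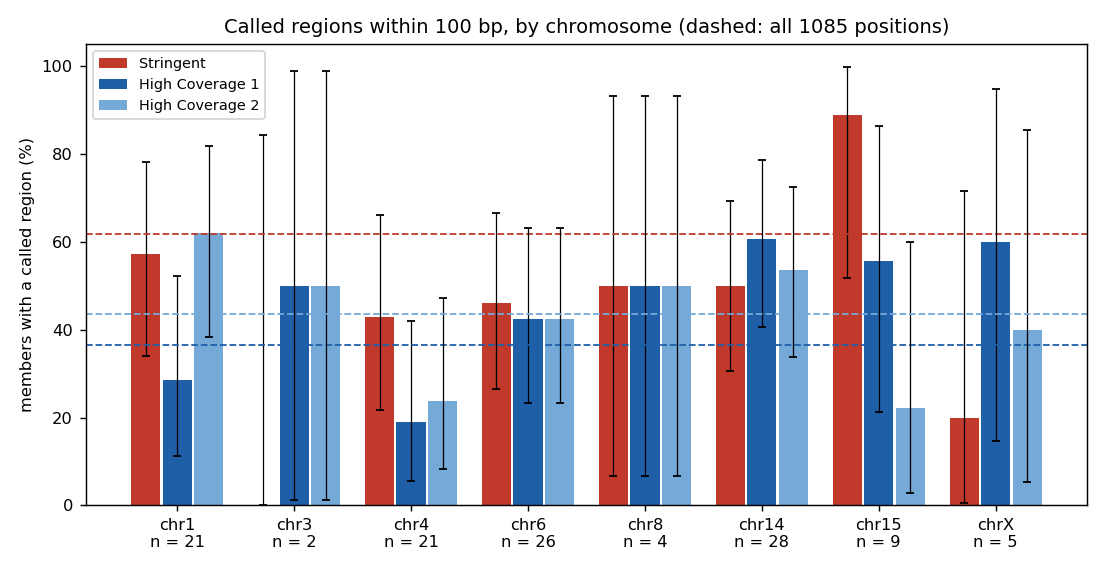
Share of members with a called region within 100 bp, by chromosome, on Stringent, High Coverage 1 and High Coverage 2 (bars, in percent, with exact 95% intervals over promoters). Dashed lines give the share over all 1085 positions. Chromosome 15 stands at 88.9% on Stringent and 22.2% on High Coverage 2, and chromosome X at 20% on Stringent and 60% on High Coverage 1.

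Set over the 3 arrays, 19 members had a region on every array, or 16.4%, where all positions gave 17.3%. No array had a region at 24 members, or 20.7%, beside 18.8%. Exactly 1 array had one at 45 members, or 38.8%, beside 38.1%, and exactly 2 arrays at 28 members, or 24.1%, beside 25.8%. Stringent alone had one at 24 members, or 20.7%, beside 28.3%. Both High Coverage arrays but not Stringent had one at 13 members, or 11.2%, beside 9.77%. At least 1 High Coverage array but not Stringent had one at 34 members, or 29.3%, beside 19.5%. The last of these shares was above the interval of the other positions (15.98 to 20.95), with an interval of its own from 21.2 to 38.5. The 13 members of the group without nesting were Olfr433, Olfr429, Olfr724, Olfr730, Olfr732, Olfr741, Olfr747, Olfr234, Olfr70, Olfr275, Olfr446, Olfr213 and Olfr1320.

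The 2 High Coverage arrays ranked the members much alike, and Stringent ranked them otherwise. Across the 116 highest scores, Pearson's r was 0.728 and Spearman's rho 0.592 between HC1 and HC2. Between Stringent and HC1 they were -0.0264 and -0.167, and between Stringent and HC2 they were 0.202 and -0.0402. These values are across promoters read by the same probes, are no replicate test, and are given as a description. For the 963 other positions with probes, r was 0.659 and rho 0.634 between the High Coverage arrays, so that r was lower and rho higher than at members. Between Stringent and HC1 they were 0.0559 and -0.127, and between Stringent and HC2 they were 0.225 and 0.0827.

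By the lowest percentile over the 3 arrays, the first 10 were Olfr726, Olfr211, Olfr31, Olfr1412, Olfr257, Olfr725, Olfr748, Olfr1411, Olfr746 and Olfr1415. They lie in 5 clusters on chromosomes 1, 6, 14 and 15, with Olfr726, Olfr725, Olfr748 and Olfr746 in the large cluster of chromosome 14 and Olfr1412, Olfr1411 and Olfr1415 in the first cluster of chromosome 1. Olfr726, on the minus strand of chromosome 14 at 50710665 (mouse build mm9, as are all positions of the promoter table below), scored 17.7 on Stringent, 16.4 on HC1 and 21.3 on HC2. Olfr211, on the plus strand of chromosome 6 at 116439046, scored 18.0 on Stringent, 10.1 on HC1 and 18.9 on HC2. Olfr31, on the plus strand of chromosome 14 at 15155384, scored 22.9, 4.47 and 14.8 in the same order, and its Stringent score was the highest of all members. All 3 genes stood above the 97th percentile on every array.

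The signal of Olfr726 began just downstream of its position on all 3 arrays. Its Stringent region covered 765 bp in a single block. On HC1 the region at the position covered 269 bp, with a next region starting 241 bp downstream, and on HC2 it covered 221 bp, with the next starting 203 bp downstream. The stretch that was 1 region on Stringent was thus split on the arrays without nesting.

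**Figure D2:**
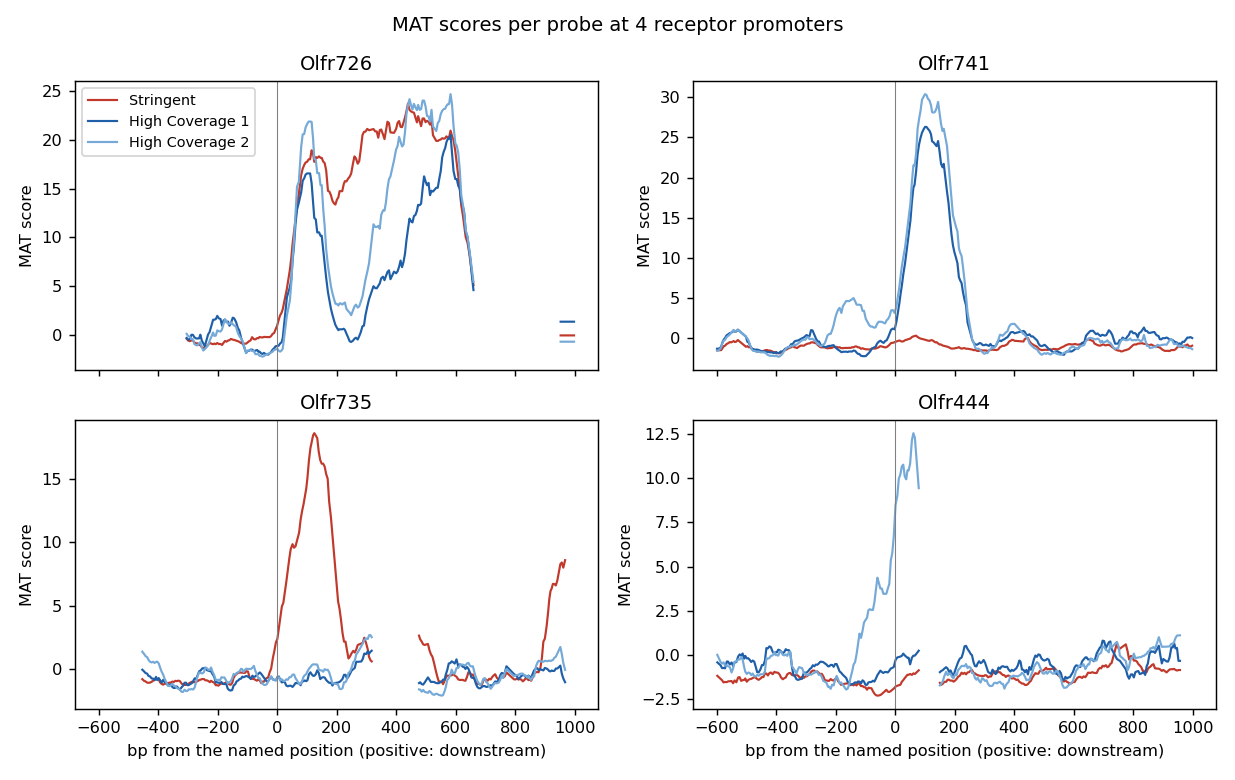
MAT score per probe (vertical axis, scale set per panel) against distance from the named position in bp (horizontal axis, positive downstream) for Olfr726, Olfr741, Olfr735 and Olfr444, with Stringent in red and the High Coverage arrays in blue. Lines break where no probe was scored. Near the position Olfr726 rises on all 3 arrays, Olfr741 on both High Coverage arrays and Olfr735 on Stringent. On High Coverage 2, Olfr741 also has a lower block upstream, with 5.00 at -140 bp. Olfr444 rises on High Coverage 2 from about -130 bp, with 4.38 at -60 bp and 12.5 at 61 bp.

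Olfr741 and Olfr735 were singled out after their values were seen, as genes of 1 cluster with opposite calls. Olfr741, on the plus strand of chromosome 14 at 51092592, scored 0.330 on Stringent, against 26.3 on HC1 and 30.4 on HC2, the highest score of any member on both of those arrays. Its region covered 353 bp on HC1 and 347 bp on HC2. Olfr735, on the minus strand of the same cluster at 50968599, scored 14.2 on Stringent, against -0.245 on HC1 and 0.269 on HC2. The genes lie in the same cluster and were read by the same arrays, and each was called where the other was not.

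Differences between nested and unnested product were read as the Stringent percentile less the mean of the High Coverage percentiles. The limit was 34.3 percentile points, the 95th percentile of the absolute difference between the 2 High Coverage arrays over all positions. Above it stood 12 members, or 10.3%, beside 8.8% of all scored positions, and below it 3 members, or 2.59%, beside 1.2%. These shares are near those of the whole table. The count above the limit depended on the scale and the window, each of which also sets its own limit. On a median and MAD scale, with a limit of 12.2 MADs, it was 33 members, or 28.4%, beside 40.7% of all scored positions. With a window of 500 bp on each side, and a limit of 12.4 percentile points, it was 4 members, or 3.45%, beside 4.53%. Under both settings the members' share was thus below that of all positions, the reverse of the order above. Stringent has a single array, so none of these differences has a replicate check on its side.

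The 12 members higher on Stringent were Olfr284, Olfr1329, Olfr448, Olfr432, Olfr270, Olfr47, Olfr155, Olfr282, Olfr1340, Olfr283, Olfr434 and Olfr1342, of which 11 lie on chromosomes 4, 6 and 15. A Stringent region was called at 7 of them. The other 5, Olfr432, Olfr270, Olfr47, Olfr155 and Olfr434, had no region on any array. They stood between the 88.8 and 93.1 percentiles on Stringent, with scores below the authors' threshold. Olfr284, the first by size, scored 11.8 on Stringent, against -0.646 on HC1 and -0.754 on HC2, and differed by 56.1 points. Olfr448 on chromosome 6 had a region on all 3 arrays although its highest High Coverage scores in the window were -0.651 and -0.612, because regions of 216 bp, with 5′ edges at -311 bp on HC1 and -306 bp on HC2, reached into the window from its upstream side. Such calls with no score above 0 in the window concerned 2 members on HC1, 3 on HC2 and none on Stringent.

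The 3 members lower on Stringent were Olfr424 and Olfr419 on chromosome 1 and Olfr444 on chromosome 6. Olfr424, on the plus strand at 176061633, stood at the 22.7 percentile on Stringent, against 94.3 on HC1 and 99.05 on HC2. Olfr419, on the minus strand at 176182081, stood at 32.9, against 87.3 and 97.0. Olfr444, on the plus strand at 42899144, stood at 42.5, against 76.2 and 99.2. These 3 were the members under the 50th percentile on Stringent, and the whole table had 8 such positions. Each had a region on HC2 and none on HC1, with region scores of 11.6, 5.26 and 12.5.

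**Figure D3:**
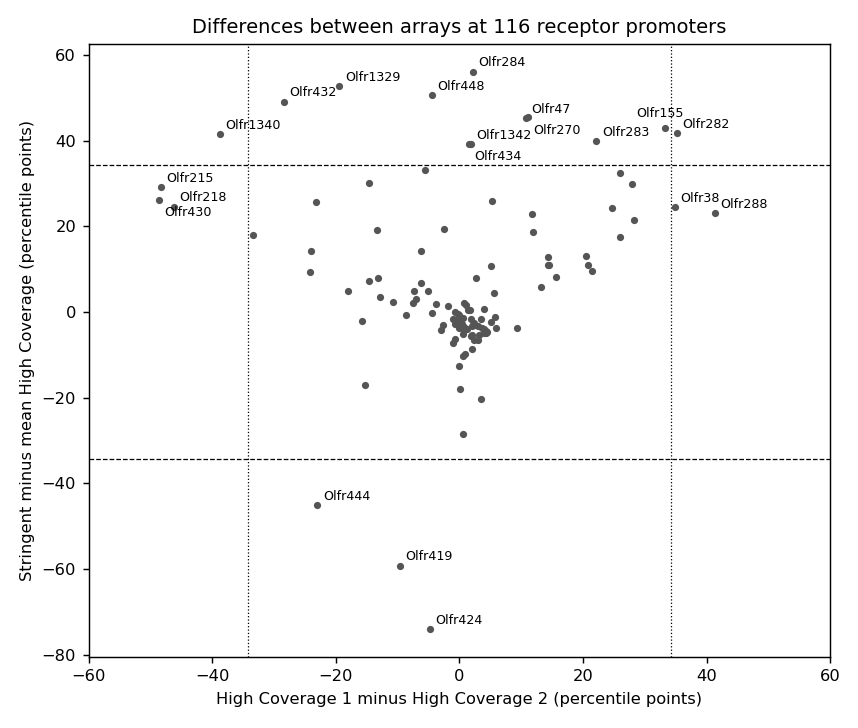
Stringent minus mean High Coverage (vertical axis) against High Coverage 1 minus High Coverage 2 (horizontal axis), both in percentile points, for the 116 members. Dashed and dotted lines mark the limit of 34.3 points, and members past either limit are named. There are 12 points above the upper dashed line and 3 below the lower one.

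The High Coverage arrays differed from each other past the same limit at 7 members, with 3 higher on HC1 and 4 lower, or 2.59% and 3.45%, beside 1.67% and 3.34% of all scored positions. Olfr430 on chromosome 1 scored -0.538 on HC1 and 4.07 on HC2, and 13.99 on Stringent. Olfr215 on chromosome 6 had -0.600 and 2.18, and Olfr218 on chromosome 1 had -0.550 and 2.27. Olfr288 on chromosome 15 had 2.45 on HC1 and -0.436 on HC2. The median absolute difference between the arrays was 4.88 percentile points at members (quartiles 1.89 and 14.6) and 4.15 at other positions.

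By cluster, the share of Stringent regions ran from 16.7% to 88.9% where a cluster had at least 5 members. Shares of 0% and 100% occurred only in smaller clusters and lone genes. The cluster of chromosome 15, from 98026101 to 98322818 with 9 members, had a Stringent region at 8 of them, where all positions gave 61.7%. HC1 had a region at 5, or 55.6%, and HC2 at 2, or 22.2%, beside 36.4% and 43.6% of all positions. The median percentile was 96.5 on Stringent, against 91.5 on HC1 and 66.7 on HC2. The missing Stringent call was at Olfr234, the last gene of the row, which scored 1.53 on Stringent, against 5.87 on HC1 and 11.1 on HC2. Olfr257 alone was called on all 3 arrays, with scores of 11.4, 5.37 and 12.5. Olfr284, Olfr283 and Olfr282, 3 neighbours, all stood past the limit, 56.1, 40.0 and 41.7 points higher on Stringent.

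Olfr288, Olfr287 and Olfr286 open this cluster, on the minus strand at 98026101, 98051551 and 98064973, and had the same pattern of calls, on Stringent and HC1 but not on HC2. Olfr288 scored 13.3 on Stringent, against 2.45 and -0.436 on the High Coverage arrays. Olfr287 scored 13.0, against 1.77 and -0.0617, and Olfr286 scored 6.54, against 0.357 and -0.0732. The called regions of Olfr288 and Olfr287 were alike too, 454 and 456 bp long on Stringent with region scores of 18.2 and 17.6. On HC1 their regions were 356 and 350 bp long, with region scores of 18.4 and 18.2, as high as on Stringent. These HC1 regions started 44 and 50 bp downstream, and their highest scores lay beyond the 100 bp window. The HC1 region of Olfr286 scored 4.65, also above its window score. The pair has near-identical sequence at the annotated gene starts, with 93.7% identity over 238 aligned bases of the RefSeq windows. These windows run from 250 bases before to 50 after the gene start of build GRCm38.p6, another build than that of the arrays, so where the mapped positions fall in them is not known. Both are given because probes in a shared stretch cannot tell the genes apart. Capitals mark a CCCNNGGG match, the core of the sites of the O/E (EBF) factors, and both copies hold it. Olfr288 is chr15:98195493-98195792 and Olfr287 chr15:98221007-98221306, both on the minus strand.
Olfr288: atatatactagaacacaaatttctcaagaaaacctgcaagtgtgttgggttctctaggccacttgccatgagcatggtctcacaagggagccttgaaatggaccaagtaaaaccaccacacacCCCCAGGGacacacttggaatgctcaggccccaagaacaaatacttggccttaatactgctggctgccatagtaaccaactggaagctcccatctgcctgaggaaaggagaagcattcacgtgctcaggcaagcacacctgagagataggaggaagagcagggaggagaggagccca
Olfr287: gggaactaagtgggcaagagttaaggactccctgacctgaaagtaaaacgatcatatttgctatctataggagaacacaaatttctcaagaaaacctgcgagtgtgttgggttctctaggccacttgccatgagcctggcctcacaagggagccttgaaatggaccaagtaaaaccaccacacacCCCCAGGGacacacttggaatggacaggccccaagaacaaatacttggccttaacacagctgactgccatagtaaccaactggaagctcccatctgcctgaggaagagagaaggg

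Of the 5151 pairs of members with a RefSeq window, 6 pairs had at least 70% identity over 150 or more bases without gaps, and 3 of these exceeded 90%. Beside Olfr288 and Olfr287 they were Olfr723 and Olfr724 (97.7% over 300 bases) and Olfr746 and Olfr748 (96.3% over 300 bases), both pairs on chromosome 14. Olfr723 scored 2.76 on Stringent, 0.0908 on HC1 and 4.07 on HC2, and Olfr724 scored 1.56, 2.81 and 4.08. Olfr746 scored 3.92 on Stringent, 3.31 on HC1 and 3.01 on HC2, and Olfr748 scored 11.3, 2.79 and 3.07. By these window scores the members of the last pair stood far apart on Stringent and close together on the High Coverage arrays. Their High Coverage regions differed more. Those of Olfr746 scored 3.31 on HC1 and 3.01 on HC2, over 143 and 124 bp. Those of Olfr748 scored 5.17 and 5.91, over 353 bp on each array. The annotated starts of Olfr746 and Olfr748 are each an ATG, so their windows end in coding sequence. Where the scored positions fall in the windows of these pairs is not known. How far shared probes set these values was not tested.

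Chromosome 14 holds the largest cluster of the set, 26 members from 50522856 to 52659535, and a pair far from it, Olfr720 and Olfr31. In the large cluster 12 members had a Stringent region, or 46.2%, while 16 had a HC1 region and 14 a HC2 region, or 61.5% and 53.8%. All positions gave 61.7% on Stringent, 36.4% on HC1 and 43.6% on HC2. Stringent stood below both High Coverage arrays at 16 of the 26 and above both at 9. Over all scored positions these shares were 30.7% and 54.3%. Olfr725, Olfr726, Olfr729, Olfr734, Olfr742, Olfr746 and Olfr748 were called on every array. Olfr734, known from mouse liver as a receptor for the hormone asprosin, scored 2.69 on Stringent, 2.76 on HC1 and 4.67 on HC2. Olfr738 had the lowest mean percentile of the cluster, with 0.252 on Stringent, -0.255 on HC1 and 0.849 on HC2, and no region. Olfr720 scored 14.4 on Stringent, against 1.67 and 0.424.

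Olfr725 and its neighbour Olfr726 lie 50440 bp apart on the minus strand, and their RefSeq windows share 70.4% over 196 bases. Olfr725 scored 6.84 on Stringent, 2.94 on HC1 and 4.27 on HC2, less than Olfr726 on each array. The window of Olfr725 is printed because its annotated start is no ATG and its RefSeq gene spans 6148 bp, so that it does not lie at the coding start. Capitals mark a TAATNA match on either strand, the core of homeodomain sites. It is chr14:50035451-50035750 of GRCm38.p6, minus strand.
Olfr725: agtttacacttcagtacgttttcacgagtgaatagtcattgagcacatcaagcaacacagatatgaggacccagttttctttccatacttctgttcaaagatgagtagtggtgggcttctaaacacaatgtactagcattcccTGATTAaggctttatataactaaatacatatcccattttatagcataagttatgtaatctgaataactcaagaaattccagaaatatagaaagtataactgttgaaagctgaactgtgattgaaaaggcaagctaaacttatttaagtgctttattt

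**Figure D4:**
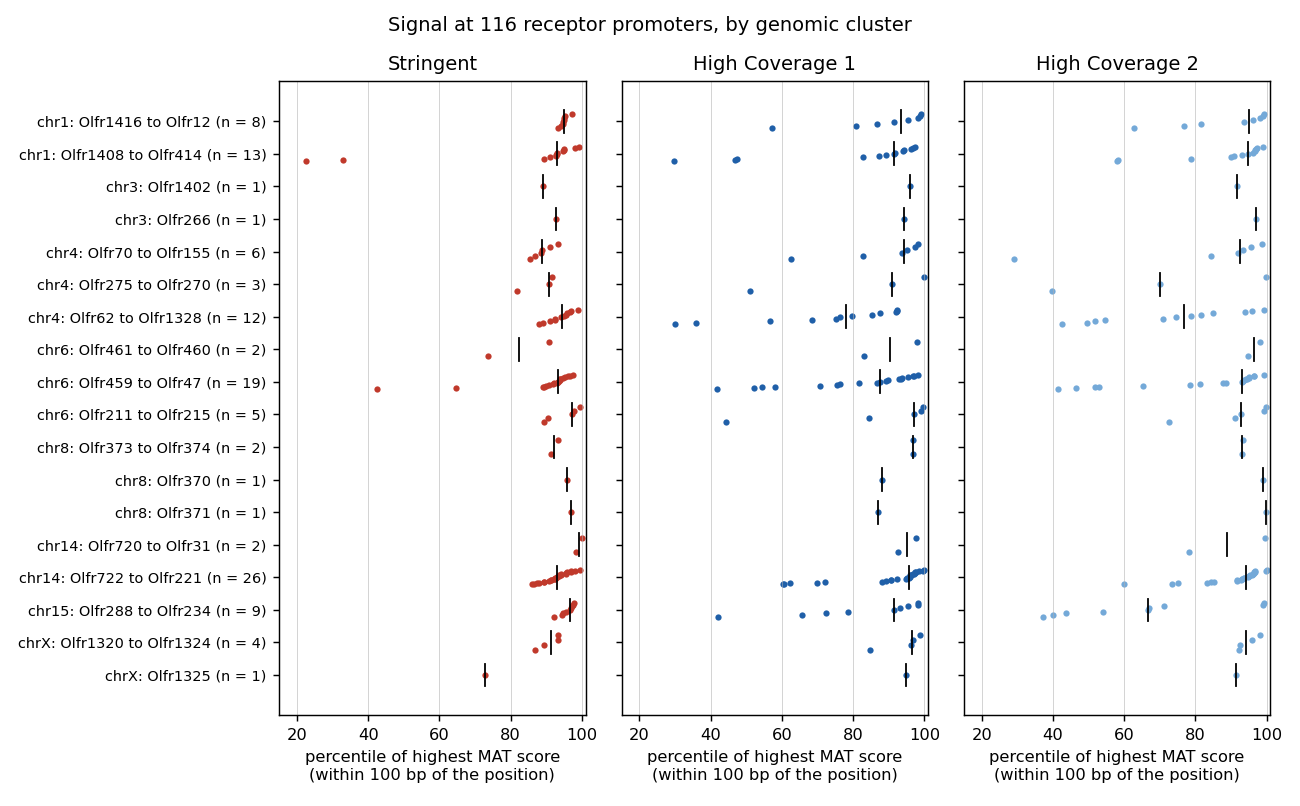
Percentile of the highest MAT score within 100 bp of each member's position (horizontal axis) by cluster (rows, named by chromosome and by the first and last gene), for Stringent, High Coverage 1 and High Coverage 2. Points are members and black bars cluster medians. The chromosome 15 row lies to the right on Stringent (median 96.5) and spreads to the left on High Coverage 2 (median 66.7).

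Chromosome 4 holds 3 clusters that differed in their calls. The cluster from Olfr70 to Olfr155, 6 members within 148 kb, had a Stringent region at Olfr159 alone, with a score of 2.60, and a median percentile of 88.7 on Stringent, 94.4 on HC1 and 92.6 on HC2. The cluster of Olfr275, Olfr273 and Olfr270 had no Stringent region, although Olfr275 scored 19.8 on HC1 and 18.3 on HC2, against -0.0524 on Stringent. The cluster from Olfr62 to Olfr1328, 12 members within 283 kb, had the opposite pattern. There 8 members had a Stringent region, 1 had a HC1 region and 2 a HC2 region, with median percentiles of 94.5, 78.0 and 76.7. The called shares were 66.7%, 8.33% and 16.7%, beside 61.7%, 36.4% and 43.6% of all positions. Stringent exceeded both High Coverage arrays at 8 of these 12 members and fell below both at none, beside 54.3% and 30.7% of all scored positions. Olfr1333 had the highest mean percentile there, with 16.3 on Stringent, 1.61 on HC1 and 13.5 on HC2, and Olfr62 was called on all 3 arrays. Olfr1329 had the lowest mean percentile, with 1.70 on Stringent, against -0.893 and -0.543.

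Chromosome 1 had 2 clusters. In the first, Olfr1416 to Olfr12, 7 of 8 members had a Stringent region, 3 a HC1 region and 5 a HC2 region. These shares were 87.5%, 37.5% and 62.5%, beside 61.7%, 36.4% and 43.6% of all positions, so that on HC1 they were alike. Olfr1412 had its highest mean percentile, with scores of 11.5 on Stringent, 8.10 on HC1 and 12.7 on HC2, although its neighbour Olfr1411 scored higher on HC1, with 10.3. Olfr1410 had the lowest mean percentile and was the exception on Stringent, with 2.39, -0.325 and -0.194. It was nonetheless called on HC2, where a region of 251 bp with a region score of 11.04 started 77 bp downstream. In the second, Olfr1408 to Olfr414, 5 of 13 members had a Stringent region, 3 a HC1 region and 8 a HC2 region, and no member had all 3. The shares per array were 38.5%, 23.1% and 61.5%. Olfr414 led this cluster on Stringent with 16.7, against 1.49 and 4.83. Olfr432 had its lowest mean percentile, with 2.24 on Stringent, against -0.897 and -0.327. This cluster also holds Olfr424 and Olfr419, which stood low on Stringent.

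Chromosome 6 had 26 members in 3 clusters. The cluster from Olfr459 to Olfr47, with 19 members, had a Stringent region at 9, a HC1 region at 7 and a HC2 region at 8. These shares were 47.4%, 36.8% and 42.1%, beside 61.7%, 36.4% and 43.6% of all positions. Both High Coverage shares were thus near those of all positions. Olfr458 had its highest mean percentile, with 2.62 on Stringent, 5.65 on HC1 and 3.18 on HC2. The highest Stringent score there was 12.3, at Olfr447, where the High Coverage scores were 0.972 and 2.49. In the cluster of Olfr211 to Olfr215, Olfr211 was called on all 3 arrays. Olfr213 scored 0.585 on Stringent, against 16.7 on HC1 and 11.9 on HC2, and Olfr214, its neighbour 12742 bp away, scored 11.7, against 0.714 and 0.150. Neighbours of 1 small cluster thus differed in opposite directions. The pair Olfr461 and Olfr460 had no Stringent region and 1 region on each High Coverage array.

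The lone genes were Olfr1402 and Olfr266 on chromosome 3, Olfr370 and Olfr371 on chromosome 8 and Olfr1325 on chromosome X, each over 1 Mb from any other named position. Olfr370 scored 7.65 on Stringent, 1.03 on HC1 and 11.1 on HC2. Olfr371 scored 11.2 on Stringent, 0.914 on HC1 and 18.7 on HC2. Both were called on Stringent and HC2 and not on HC1. Olfr1402 scored 0.538 on Stringent, 2.76 on HC1 and 1.86 on HC2, with a region on HC1. Olfr266 scored 1.79, 2.09 and 5.01, with a region on HC2. Olfr1325 scored -0.338, 2.32 and 1.83 and had none. A gene without receptor neighbours could thus reach the 99.8 percentile, as Olfr371 did on HC2.

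The other receptors of chromosomes 8 and X were mostly called on HC1, while HC2 had a region only at Olfr1320 and Olfr1321. Over all positions HC1 had a region at 36.4% and HC2 at 43.6%. Olfr373 and Olfr374, 8441 bp apart on chromosome 8, scored 2.45 and 1.09 on Stringent, 3.29 and 3.40 on HC1 and 2.30 and 2.27 on HC2, with regions on HC1 alone. On chromosome X, from 47030594 to 47784275, Olfr1321 was called on all 3 arrays, with 2.37 on Stringent, 7.33 on HC1 and 7.73 on HC2. Olfr1320 scored 0.263, 3.41 and 3.87 and was called on both High Coverage arrays. Olfr1324 was called on HC1, and Olfr1323 on none. At 4 of 5 X-linked members Stringent stood below both High Coverage arrays, beside 30.7% of all scored positions.

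At most members the score was higher on the transcribed side of the position, at shares near those of all positions. Members were counted whether or not they had a called region. With at least 5 probes on each side, the mean over 150 bp was higher downstream than upstream at 101 of 108 members on Stringent, or 93.5%, beside 95.1% of all such positions. It did so at 70.4% on HC1 and 76.9% on HC2, beside 70.5% and 74.9%. On Stringent the members' median score was -0.993 between 100 and 50 bp upstream. Just past the position, over 50 bp, it was 1.41, and over the following 50 bp 1.52. The other positions had -0.929, 2.26 and 3.54 in these bins. The members spread widely: from 150 to 200 bp downstream their quartiles on Stringent were -0.982 and 7.36. In windows 1 kb upstream, 0 of 66 tiled members had a Stringent region, which allows a share of up to 4.55% at 3 counts of the total (5.44% as the upper bound of the exact interval), beside 1.15% of all such windows. HC1 had one at 7 of 66 and HC2 at 5 of 66, or 10.6% and 7.58%, beside 9% and 8.02%.

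**Figure D5:**
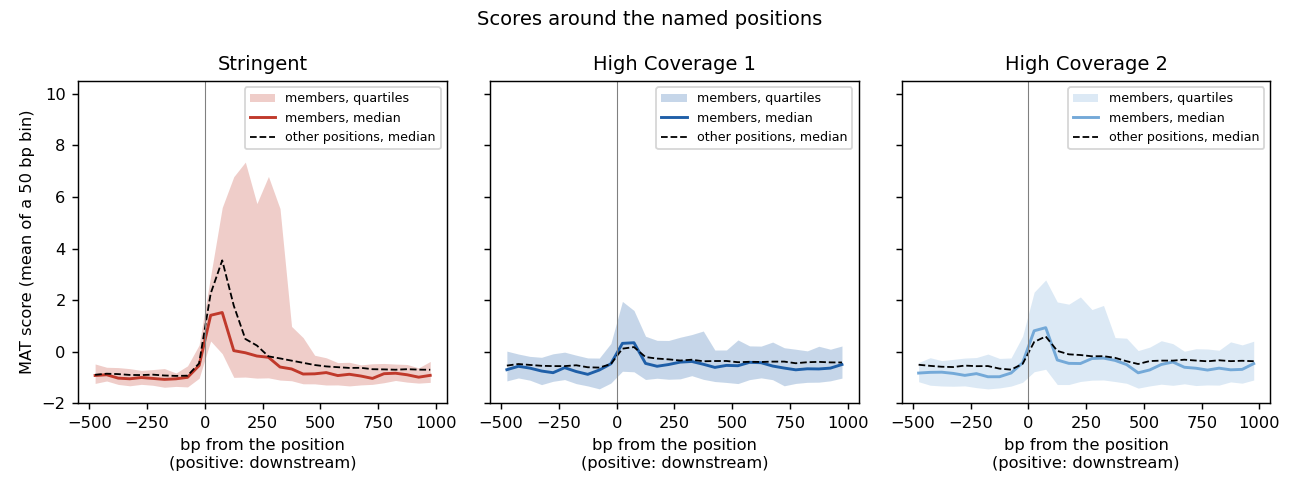
MAT score averaged in 50 bp bins (vertical axis) against distance from the position in bp (horizontal axis, positive downstream), as the median (line) and quartiles (band) over the members scored in each bin and the median over the other positions (dashed). On Stringent the median of the members reaches 1.52 and that of the other positions 3.54 in the bin from 50 to 100 bp.

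The Stringent regions of members were 367 bp long at the median (40 to 863, 58 regions), against 303 bp at other positions. On HC1 the median lengths were 189 and 185 bp, and on HC2 they were 216 and 208.5 bp. At their 5′ end, these regions started at a median of -39 bp (quartiles -49 and -29 bp), against -44 bp at other positions. The called members thus had Stringent regions at least as long as those of other positions at the median.

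Most members had further regions downstream, where introns and the coding exon lie. Counted from 200 bp to 10 kb downstream and stopping at the next named position, 96 of 116 members had a further Stringent region, or 82.8%, beside 89.2% of all positions. The first of these started at a median of 2184.5 bp (quartiles 1328 and 4153 bp), against 1643.5 bp for other positions. HC1 had such a region at 96.6% of members and HC2 at 94.0%, beside 96.6% and 93.7%. In the same span upstream, Stringent had a region at 22.4% of members, beside 33.4% of all positions. On all 3 arrays, more members thus had a further region downstream than upstream. Upstream, the High Coverage shares were 53.4% and 40.5%, beside 53.5% and 51.2%. The sides were not equally tiled near the position. Probes were scored at 67 members from -500 to -450 bp and at 98 members from 450 to 500 bp. A region can be called only where probes are scored. How far tiling sets the difference between the sides was not tested. Of the 24 members without a region at the position on any array, 18 had such a Stringent region downstream, at a median of 1861 bp (226 bp at Olfr47 to 7575 bp at Olfr722). The other 6, Olfr427, Olfr417, Olfr731, Olfr738, Olfr270 and Olfr1325, had none. The like share among all positions without a region on any array was not computed, so this count has no baseline.

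Sequence at the gene starts was read from RefSeq, which matched 112 members by symbol and 3 by synonym and held a window for 102. The match was on the same chromosome in each case, and the members made up 115 of the 140 protein-coding receptors that RefSeq lists on these chromosomes. In 69 of the 102 windows the annotated start is itself an ATG, so the window lies before the coding start and not at a transcription start. Among the 33 others, the median A+T share was 55.7%, against 63.3% in 225 windows of other receptors without an ATG at the start. Lacking an ATG at the start does not place a window at a transcription start. Among these 33, the windows of Olfr429, Olfr747, Olfr282 and Olfr1337 hold a receptor-like open frame. A TAATNA match lay in 16 of the 33, or 48.5%, against 70.7% of the other receptors and 26.8% of all 27025 RefSeq windows of this length. TAATTA, which TAATNA includes, lay in 12.1%, against 19.6% and 5.31%. CCCNNGGG lay in 9.09%, against 7.56% and 13.4%. TATAAA, the TATA box, lay in 27.3%, against 35.6% and 14.2%. A RefSeq gene span over 1500 bp, with or without an ATG at the start, held for 16 member windows and 125 of other receptors. There the median A+T share was 54.8% for members, against 62.3%. TAATNA lay in 37.5%, against 70.4%, and TAATTA in 6.25%, against 21.6%. CCCNNGGG lay in 18.75%, against 12.8%, and TATAAA in 6.25%, against 36%. All motifs were searched on both strands. A match describes the letters of these windows, and A+T share moves with the A+T-rich motifs. The part of base composition in these shares was not tested.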

How the data were processed

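The arrays measured RLM-RACE products of mouse olfactory epithelium. The authors deposited a MAT score per probe and called regions per array with no control array, using, per the file headers, BandWidth 50, MaxGap 30 and MinProbe 5; the headers name unlike probe maps for Stringent and High Coverage. The deposited promoter positions are other values made by the authors, on mm9 per the submitters' processing notes; the sources used here do not say how they were chosen.

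Probes at exactly 0 on all arrays were read as unscored. Windows reached 100 bp to each side. Shares have exact Clopper-Pearson intervals at 95%, which cover counting error only. Every share was computed over the whole table, and members were read from it. The genes named were the first 10 by lowest percentile, those past the limit, the 5 largest High Coverage differences, lone genes, and the highest and lowest of each cluster of at least 5 members; Olfr741, Olfr735 and others named with sequence or cluster patterns were chosen after their values were seen. The members and lists were chosen with earlier results of these data known. No protein sequences and no genome of the files' build were used here, and tissue markers were not analysed here. The reading of window scores, percentiles, region overlaps and clusters was tested on simulated data. Software was matplotlib 3.10.9, scipy 1.17.1, pandas 2.3.3 and numpy 2.4.6 under Python 3.11.15.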

Additional observations from a re-analysis of the deposited data

How the results depend on the processing

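No paired analysis was possible because Stringent has a single array and no replicate number joins it to a High Coverage array. Reading the position itself (for scores, the nearest scored probe) in place of 100 bp on each side, 28.4% of members had a region on HC1 and 33.6% on HC2, beside 25.1% and 28.7% of all positions. The median percentile was then 88.8 on Stringent, 75.5 on HC1 and 74.7 on HC2, beside 89.2, 64.0 and 68.1, and 32 members (27.6%, beside 26.8%) stood higher and 5 (4.31%, beside 1.95%) lower on Stringent. With 500 bp on each side the High Coverage shares were 59.5% and 57.8%, beside 55.0% and 58.9%, so that members were below all positions on HC2. The High Coverage medians were 96.0 and 95.6, beside 95.8 and 95.6, and 4 members (3.45%, beside 4.53%) stood higher and 6 (5.17%, beside 2.13%) lower. With as many regions from each array as Stringent has, the HC1 share was 28.4%, beside 24.4%. The mean score in the window gave medians of 88.8 on Stringent, 68.5 on HC1 and 75.1 on HC2, beside 91.8, 67.1 and 72.7, and 28 members (24.1%, beside 23.5%) higher. The median and MAD scale gave 33 higher (28.4%, beside 40.7%). Each window and scale had its own limit. Without HC1, 17 members (14.7%, beside 9.64%) stood higher and 3 (2.59%, beside 1.2%) lower. Without HC2, 16 members (13.8%, beside 11.4%) stood higher and 2 (1.72%, beside 1.11%) lower. The Stringent share lay between 45.7% and 53.4% under the window, overlap, region number and member alternatives, below that of all positions in each. The causes were not tested. The number of arrays, and no depth, limits these values.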

Other observations

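The spacing and strands of neighbouring members were not part of any comparison. There were 94 adjacent pairs of members within a cluster with no other named position between them, at a median distance of 26079 bp (5884 to 964604). Of these, 71 pairs ran on the same strand, 12 pointed away from each other and 11 towards each other. The closest pairs were Olfr745 and Olfr746 at 5884 bp and Olfr437 and Olfr13 at 6876 bp, both on the same strand, and Olfr1406 and Olfr218 at 7156 bp, which point away from each other. Both members of each of these 3 pairs had a Stringent region. The next in distance, Olfr429 with Olfr427 at 8181 bp and Olfr244 with Olfr424 at 8274 bp, had none. Over all 94 pairs, 29 had a Stringent region at both members, 39 at 1 of them and 26 at neither. Taken singly, 50% of members and 61.7% of all positions had a Stringent region. Pairs were counted among members only, so these counts have no like share over all positions. Whether calls depend on distance was not tested.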
